A study of Bubalus bubalis with 8 samples.

Results

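In buffalo oocytes and embryos, 45 genes stayed within a limited span from the immature oocyte to the 8-cell embryo. They were then at least 4-fold higher in the 16-cell embryo, the morula and the blastocyst. They were taken from the 18220 numbered gene IDs of a table of 28659 IDs. They were chosen by their FPKM (a fragment count corrected for the length of the transcript and for the size of the library), taken to log2(FPKM + 1). An ID belonged to the set when it had at least 10 FPKM in each of the 5 earlier libraries, when its values there spanned under 1.5 log2 units, and when each of the 3 later values lay at least 2 log2 units above the highest earlier one. The first 2 conditions were met by 2647 IDs, called stored steady IDs here, and 45 of these (1.70%) also met the third. That share is fixed by the choice and is given as a description. The word stored is a label here, since FPKM does not tell maternal from embryonic RNA. All 8 libraries enter the choice, so no value below is an independent test of it.

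The libraries came from water buffalo (Bubalus bubalis) material handled in vitro, with 1 library for each of 8 stages. The earlier libraries were the immature oocyte at the germinal vesicle (GV) stage, the mature oocyte at metaphase II (MII) and embryos of 2, 4 and 8 cells, and the later ones were the 16-cell embryo, the morula and the blastocyst. Every embryo was parthenogenetic, that is, started on development from an egg without sperm, so all carried maternal genomes only. The sources used here do not give the breed, the interval after activation or how many oocytes or embryos went into a library.

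An oocyte builds up messenger RNA while it grows and then falls silent, and the first cleavages run on that store. Stored RNA is held in protein complexes, lengthened or shortened at its poly(A) tail, and broken down in steps during maturation and cleavage. The embryo's own transcription takes over at genome activation, whose main wave in cattle comes around the 8-cell to 16-cell stage. A gene can be supplied from both sources, as maternal RNA first and as embryonic RNA later, and housekeeping genes are commonly of this kind.

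With 1 library per stage, no difference between stages had a replicate check, and a difference of stage cannot be told apart from a difference of library. FPKM is a share of the library and not an amount per embryo, and the sum over all IDs was lowest in the 8-cell library (892286) and highest in the morula library (2501133). Read depth is unknown. Fewer cells of a type and less RNA per cell cannot be told apart in such libraries, which matters most for the blastocyst with its inner cell mass and trophectoderm. The table gives no gene names and none of its IDs was found in the RefSeq table for buffalo (0 matches), so the members are described by their values, their roles are not known here, and the labelled stages were not checked against marker genes.

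Taken by their median, the 45 members were moderately abundant in the oocyte and among the most abundant transcripts after the 8-cell stage. Their median level was 113 FPKM at the GV stage, 88.8 FPKM at MII, 78.2 FPKM at 2 cells, 91.0 FPKM at 4 cells and 97.6 FPKM at 8 cells. It was 1007 FPKM at 16 cells, 2170 FPKM at the morula stage and 1333 FPKM in blastocysts. The lowest later value of any member was 112.8 FPKM. The other stored steady IDs had medians of 59.2 FPKM at the GV stage and 59.6 FPKM at 8 cells, against 26.9 FPKM at 16 cells and 21.2 FPKM in blastocysts. In the later libraries the members thus lay above their earlier levels, as the rule requires, while the median of the IDs they were drawn from lay below.

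**Figure D1:**
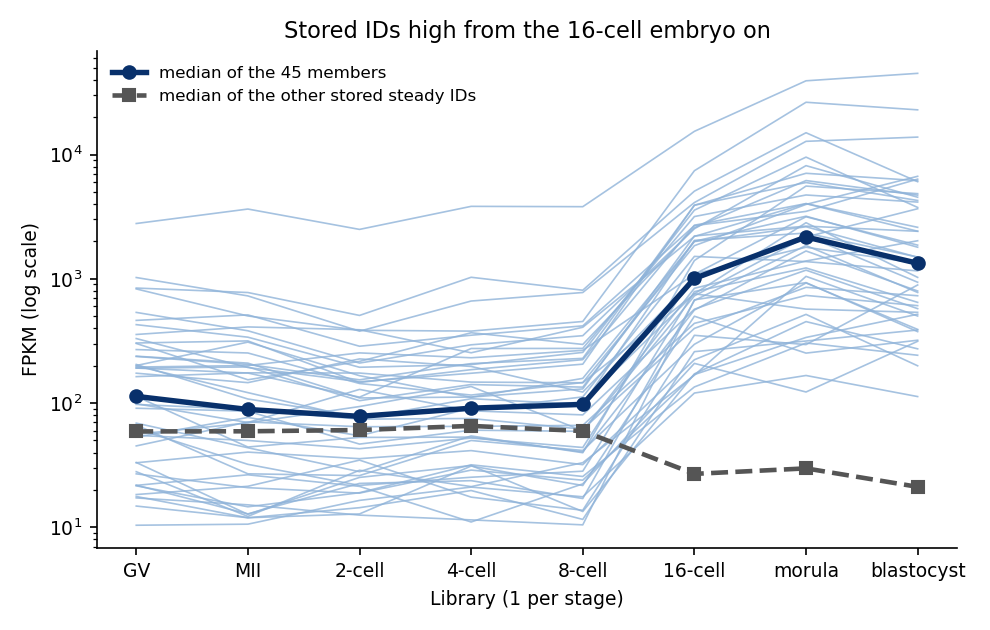
FPKM on a log scale against library for each of the 45 members (thin lines), with their median (solid, circles) and the median of the other stored steady IDs (dashed, squares). The median of the members is 97.6 FPKM in the 8-cell library and 1007 FPKM in the 16-cell library, while that of the other stored steady IDs goes from 59.6 to 26.9 FPKM.

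By rank, the median member stood at place 1691 of the numbered IDs in the GV oocyte and at place 1521 at 8 cells. It stood at place 229 at 16 cells, 274 at the morula stage and 330 in blastocysts. The rule asks for later values at least 4-fold above the earlier ones, so the higher later ranks are partly set by the choice. Among the top 100 numbered IDs by level, 1 was a member in each of the 5 earlier libraries, 12 were members in the 16-cell library and 10 in each of the other two. Summed, the members accounted for 1.01% of all FPKM in the GV oocyte, 0.856% at 2 cells and 1.20% at 8 cells. They held 7.32% at 16 cells, 7.81% at the morula stage and 7.44% in blastocysts. The share was close to level over the 3 later libraries, although the FPKM sum of the morula library was more than that of the 16-cell library (2501133 against 1162574). When the GV library was left out of the rule the IDs that met it held 21.8% of the morula sum, and without the 16-cell library 15.6%.

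The height of the later values, taken as the lowest later value minus the highest earlier value on the log2(FPKM + 1) scale, had a median of 2.51 (5.71-fold) and an interquartile range over members of 2.24 to 3.16. It ran from 2.00 to 4.76, that is from 4.01-fold to 27.1-fold. In 15 members it was 3 or more, in 5 it was 4 or more, and in 22 it was under 2.5. The set is therefore crowded towards its lower limit. The 3 members just inside that limit had heights of 2.00, 2.00 and 2.02, and the 3 stored steady IDs just outside had 1.99, 1.97 and 1.93. For the span of the earlier values, the nearest members had 1.47 and 1.47 log2 units and the nearest IDs left out had 1.53 and 1.56. For the lowest earlier value, the nearest members had 10.4 and 10.5 FPKM and the nearest IDs left out had 9.10 and 8.04 FPKM.

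The greatest height was that of gene11335. It had 21.8 FPKM at the GV stage, 12.8 at MII, 22.6 at 2 cells, 23.7 at 4 cells and 17.1 at 8 cells. It then had 669 FPKM at 16 cells, 1853 at the morula stage and 776 in blastocysts. All 3 later values were above every earlier one, and the morula value was the highest.

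The next was gene21177, with 17.3 FPKM at the GV stage, 15.2 at MII, 12.5 at 2 cells, 11.5 at 4 cells and 10.5 at 8 cells. Its later values were 677 FPKM at 16 cells, 931 at the morula stage and 376 in blastocysts. Its earlier values were lower in each successive library up to the 8-cell embryo, and its height was 4.37 log2 units (20.6-fold). This ID also had the largest decrease among members between the 16-cell and blastocyst libraries, a log2 difference of -0.85. Neither ID is paired with a gene name in the sources used here.

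At the other end of the scale of abundance was the member with the highest level in every library. It had 2785 FPKM at the GV stage, 3641 at MII, 2497 at 2 cells, 3827 at 4 cells and 3804 at 8 cells, and 15363 FPKM at 16 cells, 39182 at the morula stage and 44987 in blastocysts. It alone made up 24.1% of the members' summed FPKM at the GV stage, 18.0% at 16 cells and 27.0% in blastocysts. Its height of 2.00 log2 units was the second smallest of the set.

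A member that was abundant later was mostly one that was already abundant in the earlier libraries. The mean of the earlier values ran from 13.4 to 3311 FPKM over the members. Across the 45 members, the mean earlier and the mean later log2(FPKM + 1) had a Pearson's r of 0.90, against 0.58 across the other stored steady IDs. This is a description across genes, which are not independent and share the same 8 libraries, and the rule itself bounds the later values of the members from below. The height had a Pearson's r of -0.26 with the mean earlier level across the members.

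**Figure D2:**
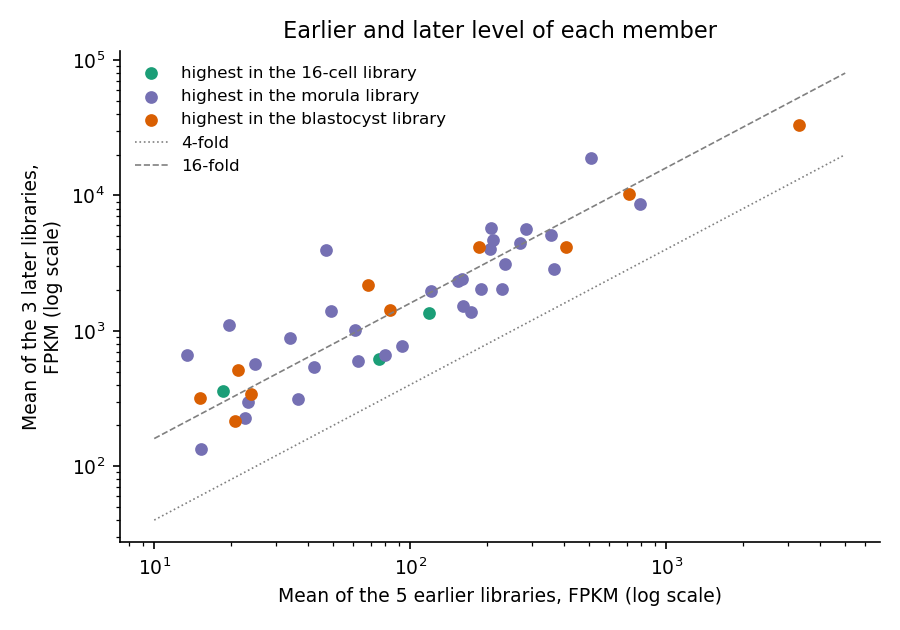
Mean FPKM over the 3 later libraries against mean FPKM over the 5 earlier libraries, both on log scales, 1 point per member, coloured by the later library with the highest value. The dotted and dashed lines mark 4-fold and 16-fold, and the points lie above the 4-fold line over earlier means of 13.4 to 3311 FPKM.

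Members occurred at every earlier level. Of the 266 stored steady IDs with an earlier mean of 10 to 20 FPKM, 5 were members (1.88%), with a median height of 3.65. The share was 1.31% of 838 IDs from 20 to 50 FPKM, 1.17% of 596 IDs from 50 to 100 FPKM and 1.91% of 419 IDs from 100 to 200 FPKM. It was 3.07% from 200 to 500 FPKM (10 of 326) and 1.98% at 500 FPKM or more (4 of 202). The counts per level are small, and no order was read from them. None of the IDs that the authors named as new genes met the rule, although 221 of them were stored steady (0 of 221).

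Most stored steady IDs that were high in a later library were not high in all 3. Of the 2647, 232 (8.76%) were at least 2 log2 units above their highest earlier value in at least 1 later library. Without the GV library these were 441. Of the 232, 100 were high in 1 library, 87 in 2 and 45 in all 3. The most common pattern was high in the morula and the blastocyst but not in the 16-cell embryo, with 77 IDs, and 53 IDs were high in the morula alone. The 16-cell library alone was high for 23 IDs and the blastocyst alone for 24. Taken library by library, 2.95% of stored steady IDs were high in the 16-cell embryo, 6.95% at the morula stage and 5.55% in blastocysts. Of the 3 later libraries, the 16-cell library was the one that the fewest stored steady IDs passed. Of the 78 IDs that were high in the 16-cell library, 45 were also high in both later stages. The order of the 3 libraries is given for FPKM as deposited only. Rescaling to the same sum lowers the morula against the 16-cell library by 1.11 log2 units. With it, 114 of the same 2647 IDs were high in at least 1 later library.

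In the opposite direction the numbers were larger. There were 427 stored steady IDs (16.1%) at least 2 log2 units below their lowest earlier value in all 3 later libraries. Taken singly, 27.0% were that low at 16 cells, 27.7% at the morula stage and 32.6% in blastocysts. IDs low in all 3 libraries outnumbered those high in all 3 with both other scalings, by 593 to 24 after rescaling to the same sum and by 361 to 51 with median-of-ratios scaling.

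**Figure D3:**
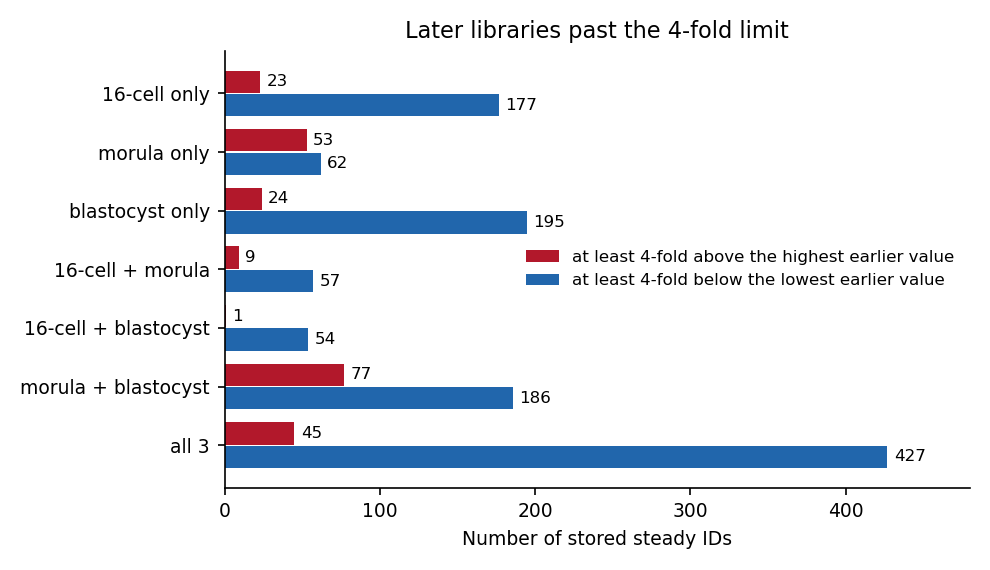
Number of stored steady IDs (of 2647) whose later values were at least 4-fold above their highest earlier value (red) or at least 4-fold below their lowest (blue), by the later libraries in which this held. The members are the 45 IDs in red in the bottom group, next to 427 IDs that were low in all 3 libraries.

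Members made their main step between the 8-cell and the 16-cell libraries. The 16-cell value was above the 8-cell value by a median of 3.58 log2 units, from 2.01 to 5.89, while the median difference of all stored steady IDs was -1.26. This step was the largest of the 7 consecutive steps in 44 of the 45 members. The rule requires a step of at least 2 log2 units here and keeps earlier steps under 1.5, so this is mostly set by the choice. The exception was a member with 28.0 FPKM at the GV stage, 12.2 at MII, 28.8 at 2 cells, 21.3 at 4 cells and 33.2 at 8 cells. It had 168 FPKM at 16 cells, 1046 at the morula stage and 502 in blastocysts, and its larger step was the one into the morula.

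Once high, few members differed 4-fold among the 3 later libraries. The order of those 3 values is not fixed by the rule, but an ID with 1 low later value could not be a member, which limits their spread. The span over the 3 libraries had a median of 1.26 log2 units and ran from 0.26 to 2.63. Among the 845 numbered IDs that were, like the members and including them, at or above 112.8 FPKM in all 3 later libraries, the median span was 1.49. It was under 1 log2 unit in 17 of 45 members, against 27.3% of the 845, and 2 or more in 2 members, against 29.6%. Between the 16-cell and morula libraries, 1 of 45 members was at least 2 log2 units apart, against 34.4% of the 7192 numbered IDs that reached 10 FPKM in either of those libraries. Among the 845 IDs 21.5% were that far apart. The members' count depended on the GV library, since 15.9% of the 132 IDs that met the rule without it were that far apart. From the morula to the blastocyst the members had 0 such IDs, against 17.1% of 6750 IDs and 4.14% of the 845. From the 16-cell embryo to the blastocyst they had 1, against 41.6% of 7575 IDs and 18.9% of the 845 (6.06% of the 132). After rescaling to the same sum the same 45 members had 0 from the 16-cell embryo to the blastocyst. With no replicate libraries none of these differences was tested.

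The morula was the highest library for most members. The highest later value was in the morula for 32 members, in the blastocyst for 10 and in the 16-cell embryo for 3. Among the 845 IDs above the same floor, 61.5% were highest in the morula, 20.4% in blastocysts and 18.1% at 16 cells. The median difference was 0.99 log2 units from the 16-cell embryo to the morula for the members and 0.92 for the 845 IDs. From the morula to the blastocyst they were -0.43 and -0.54. The 845 IDs, which include the members, thus had the same order of libraries. The peak in the morula also depended on scaling. When each library was rescaled to the same sum, which lowers the morula against the 16-cell library by 1.11 log2 units, the same 45 members were highest in the 16-cell embryo 21 times, in the morula 16 times and in the blastocyst 8 times. With median-of-ratios scaling the numbers were 3, 32 and 10.

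The commonest order, in 23 members, was morula, then blastocyst, then 16-cell embryo. Another 9 were highest in the morula and lowest in the blastocyst, and 8 were higher in each successive stage. A member of this last kind had 90.9 FPKM at the GV stage, 86.1 at MII, 46.8 at 2 cells, 60.5 at 4 cells and 59.2 at 8 cells. It had 729 FPKM at 16 cells, 2170 at the morula stage and 3662 in blastocysts. It was the 1 member at least 2 log2 units higher in the blastocyst than in the 16-cell embryo, by 2.33. After rescaling to the same sum no member was. The orders are for FPKM as deposited, and no share over the 845 IDs was taken for them. In pairs, the morula was higher than the 16-cell embryo in 40 members, against 78.9% of the 845. The blastocyst was higher than the 16-cell embryo in 33, against 63.4%. Rescaled to the same sum, these members numbered 19 and 11.

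Only 3 members had their highest value in the 16-cell library. Among them was gene26362, the member with the second largest decrease from the 16-cell embryo to the blastocyst. It had 14.8 FPKM at the GV stage, 12.0 at MII, 12.8 at 2 cells, 31.1 at 4 cells and 21.7 at 8 cells. Its later values were 499.9 FPKM at 16 cells, 252 at the morula stage and 320.5 in blastocysts. The blastocyst value lay 0.64 log2 units under the 16-cell value (a difference of -0.64), which is short of the limit of 2 used for calling a difference.

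**Figure D4:**
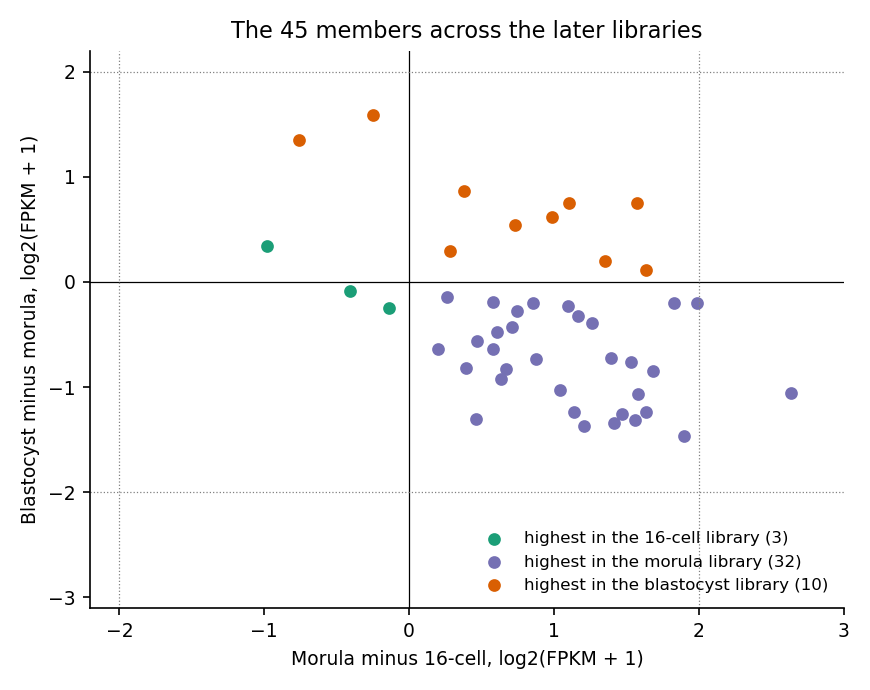
Blastocyst minus morula against morula minus 16-cell, both in log2(FPKM + 1), 1 point per member, coloured by the later library with the highest value (3 at 16 cells, 32 at the morula stage, 10 in blastocysts). Dotted lines mark differences of 2, and 1 member lies beyond them, at 2.63 from the 16-cell embryo to the morula.

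In the earlier libraries, larger shares of members than of stored steady IDs were highest in the immature oocyte and lowest in the 2-cell embryo. The rule bounds the span of these values but not their order. The 2-cell library held the lowest of the 5 values for 20 of 45 members, against 14.7% of all stored steady IDs. The GV library held the highest value for 19 members, against 21.0%. Both were true of 13 members, against 3.51%. The 2-cell value was below the GV value in 32 members, against 47.1% of stored steady IDs, and the median difference was -0.43 log2 units against 0.03. In 13 members it was at least 1 log2 unit lower, against 3.74%. The 8-cell value was above the 2-cell value in 32 members, against 48.5%, with a median difference of 0.24 log2 units against -0.02.

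One example had 238 FPKM at the GV stage and 210 at MII, then 110.0 at 2 cells, 112 at 4 cells and 130.0 at 8 cells. It was the steadiest member later, with 2211 FPKM at 16 cells, 2654 at the morula stage and 2412 in blastocysts, a span of 0.26 log2 units. A contrasting member had 45.2 FPKM at the GV stage, 70.5 at MII, 64.5 at 2 cells, 64.9 at 4 cells and 66.2 at 8 cells, so its lowest earlier value was in the GV library. It had 438 FPKM at 16 cells, 735 at the morula stage and 608 in blastocysts.

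The median height was 3.01 log2 units for the 20 members with their lowest earlier value in the 2-cell embryo and 2.37 for the other 25, although the 2 greatest heights were among the latter. Height and earlier values both entered the choice of members, so this is a description. The low 2-cell values were seen with each scaling, although by less after rescaling to the same sum, where 26 of the 45 members were lower in the 2-cell than in the GV library. The median difference was then -0.13 log2 units, against 0.35 for the stored steady IDs. With that scaling 15 members were lowest in the 2-cell library, against 6.31% of stored steady IDs, and with median-of-ratios scaling 23, against 19.9%. A scaling shifts all IDs of a library almost alike. The scalings are thus no separate check of the gap between members and stored steady IDs. All these values come from 1 library each, with no replicate.

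**Figure D5:**
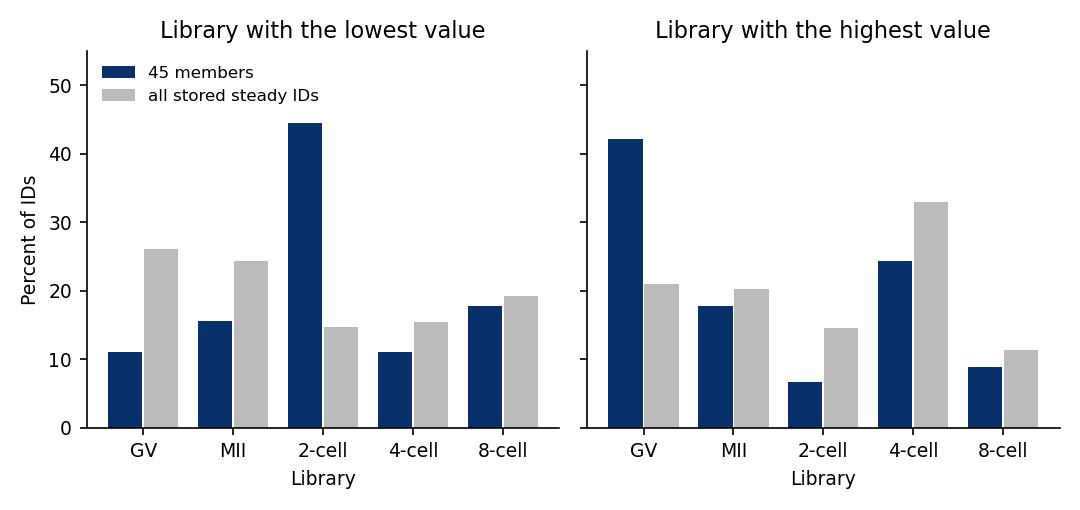
Percent of the 45 members (dark) and of all 2647 stored steady IDs (grey) that had their lowest (left) or highest (right) earlier value in each of the 5 earlier libraries. The members stand out for the 2-cell library on the left (44.4% against 14.7%) and the GV library on the right (42.2% against 21.0%).

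The number of IDs that met the rule moved with scaling and with the libraries used, besides the limits of the rule itself. After rescaling each library to the same sum, 24 IDs met it, 18 of them among the 45. The same 45 then had a lowest height of 0.76 and a median of 1.93 log2 units. Their later values had to stay above the earlier ones, because the FPKM sums of the libraries differ by less than the 4-fold limit of the rule. With median-of-ratios scaling 51 IDs met it, 40 of them among the 45. Without the 16-cell library 122 IDs met it, and without the GV library 132. Leaving out a library only takes conditions away, so all 45 were included by construction.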

How the data were processed

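The authors deposited 1 table of FPKM values for 8 libraries, the unit being taken from the deposited table's name. The sources used here do not name the aligner, assembler, genome build or annotation, and the extraction text of the labels describes another tissue, so nothing was taken from it. Columns were tied to stages through the sample descriptions and titles. Values were taken to log2(FPKM + 1). Since the members were chosen on all 8 libraries and there is 1 library per stage, no test was run. A difference was called at 2 log2 units. Between neighbouring stages, low IDs (0.005 to 0.3 FPKM in both) shared 1 repeated ratio in only 1.04% to 4.83% of cases (tolerance 0.01 log2 units), so read counts and depth were not recovered. The rule was run on simulated data with flat values, independent noise and the same rise in all 3 later libraries. That checks the code, and the real libraries differ from this setting. The members and the comparisons were chosen with earlier results of these data known. IDs are printed for the 2 members of greatest height and the 2 with the largest decrease from the 16-cell embryo to the blastocyst, 1 ID being both. Marker lists for oocyte, cumulus, trophectoderm, inner cell mass and blood had 0 members matched and were not scored. Python 3.11.15, pandas 2.3.3 and NumPy 2.4.6 were used.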

Additional observations from a re-analysis of the deposited data

How the results depend on the processing

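No paired analysis was possible because each stage has 1 library. Values were taken as moved when they changed by more than 1.5 times. The cause of the moves was not tested, except that stricter or looser limits admit fewer or more IDs by construction. Dropping a library likewise removes conditions, so the numbers of members and of stored steady IDs could not fall. The members numbered 70 with a height of 1.5, 15 with a height of 3, 306 with no minimum, 20 with a range under 1 and 24 after rescaling to the same sum. Stored steady IDs numbered 1648 with a minimum of 30 FPKM, 12049 with no minimum and 1404 with a range under 1. Those high in at least 1 later library numbered 355 (height 1.5), 111 (height 3), 134 (minimum 30 FPKM), 1938 (no minimum), 115 (range under 1) and 128 (same sum). The median height was 3.52 with a height of 3. The share of the morula FPKM sum was 3.02% (height 3), 3.06% (range under 1) and 11.8% (range under 2). The share of members highest in the morula was 44.8% with no minimum and 37.5% after rescaling. In alternatives chosen after seeing the data, which kept the same 45 members or 2647 IDs and rescaled their values to the same sum, that share was 35.6%, the median height 1.93 and the number high in at least 1 later library 114; median-of-ratios scaling moved none of these. When each library was dropped once, there were 46 members (no morula library) to 132 members (no GV library), 2647 to 3407 stored steady IDs, 179 to 441 high in at least 1 later library, median heights of 2.49 to 2.92, 68.0% to 75.5% of members highest in the morula, and 7.88% to 21.8% of the morula sum; without the 16-cell library they were 122 members and 15.6%. For the other counts and shares recomputed under these alternatives, 95 values stayed within 1.5 times and 43 did not, among them the share of members 4-fold apart between the 16-cell embryo and the morula (0% to 23.5%). Depth is unknown, so counting error cannot be given.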

Other observations

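A larger set of IDs with similar later values was kept out of the rule by the GV library. When the GV library was left out, 87 further numbered IDs met it, and in 86 of these the GV value was the highest of the 5 earlier values. Their median level was 231 FPKM at the GV stage, 64.4 at MII, 56.9 at 2 cells, 52.0 at 4 cells and 52.8 at 8 cells. It was 799 FPKM at 16 cells, 2306 at the morula stage and 1745 in blastocysts. In 80 of the 87 the span of the 5 earlier values was 1.5 log2 units or more, and in 84 every later value was above the GV value. Among all 760 IDs that became stored steady when the GV library was left out, the GV value was the highest in 57.5%. An ID can join either set only if its GV value was the highest or the lowest of the 5 earlier values. The high GV values and wide spans of the 87 are thus largely set by the choice and are given as a description. Both sets were defined on these same 8 libraries, and the pattern was noticed after the values were seen.

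Another 77 IDs were high in the morula and the blastocyst but short of the limit in the 16-cell embryo. Their 16-cell value was above the highest earlier value in 52, by at least 1 log2 unit in 31, and below the lowest earlier value in 14. Their median level was 77.6 FPKM at 8 cells, 195 at 16 cells, 1150 at the morula stage and 1315 in blastocysts. No share over all stored steady IDs was taken beside these counts, so they are a description of the 77 only. They are for FPKM as deposited, and rescaling to the same sum lowers the morula against the 16-cell library.

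Regardless of the earlier level, 401 numbered IDs had at least 10 FPKM in each later library and lay at least 2 log2 units above their highest earlier value in all 3. The 45 members were 11.2% of them. A further 293 had under 10 FPKM in at least 1 earlier library, and 51 of the 401 were under 1 FPKM in all 5 earlier libraries. Another 63 had 10 FPKM or more in all 5 but spanned 1.5 log2 units or more. The median height of the 356 others was 3.06, against 2.51 for the members. The floor of 10 FPKM in the later libraries by itself raises the height of IDs with low earlier values. This difference is thus partly set by the choice.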
